A study of Mus musculus with 9 samples.

Results

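Killer cell lectin-like receptors are surface proteins of natural killer cells and of some T cells, and most of their mouse genes lie side by side in the natural killer gene complex on chromosome 6. Of the 2889 genes in the deposited sample table, 4 have a symbol made of Klr, a letter from a to k and a digit: Klrb1f (ENSMUSG00000030154), Klrd1 (ENSMUSG00000030165), Klre1 (ENSMUSG00000050241) and Klrg1 (ENSMUSG00000030114). RefSeq names 33 mouse genes of this form, 29 of them protein-coding, and those outside the table were not analysed here. The transcripts were measured by RNA-seq in CD3+ T cells that had been purified by negative selection from spleens of 3 wild-type C57BL/6 mice (genotype WT), with 1 sample per mouse in each medium and 4 h of culture. The groups were adipocyte conditioned medium (3 samples), stromal cell conditioned medium (3 samples) and unconditioned medium (3 samples), and the labels do not name the cells that conditioned the media. Each listed gene comes from an authors' table of changes against unconditioned medium, or from both such tables. The members were thus selected on these same samples, and Klrb1f was also picked for its level in stromal medium, so their differences from unconditioned medium are given as a description, without a p for any single gene.

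The family is made of C-type lectin-like receptors that work as dimers. Some members carry an inhibitory motif in the cytoplasmic tail, and others signal through small adaptor proteins such as DAP10 and DAP12. Natural killer cells are their best known site, and activated or memory CD8 T cells and innate-like T cells carry several of them too. Klrb1f encodes NKR-P1F, a receptor of the NKR-P1 group that binds Clr-g, the product of Clec2i. Klrd1 encodes CD94, the shared chain that pairs with NKG2 chains and recognises the nonclassical class I molecule Qa-1. Klre1 encodes a chain that pairs with the KLRI receptors. Klrg1 encodes an inhibitory receptor for cadherins that marks late effector CD8 T cells and mature natural killer cells.

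The RefSeq promoter windows of Klrb1f and Klre1 are shown because these genes stood highest in different media. The windows run from 250 bases before to 50 after the annotated start, and for 2 of the 4 members a window was at hand. Klrb1f lies on the plus strand with its window at chr6:129045651-129045950 of GRCm38.p6, and Klre1 on the plus strand at chr6:129577963-129578262. Both are written 5' to 3', with matches to the motifs searched in capitals.
Klrb1f: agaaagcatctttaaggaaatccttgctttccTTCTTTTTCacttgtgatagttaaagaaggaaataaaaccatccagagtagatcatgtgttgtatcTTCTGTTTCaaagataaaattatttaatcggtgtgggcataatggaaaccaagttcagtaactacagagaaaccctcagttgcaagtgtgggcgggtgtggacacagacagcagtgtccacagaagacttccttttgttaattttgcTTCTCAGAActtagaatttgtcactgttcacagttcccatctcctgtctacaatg
Klre1: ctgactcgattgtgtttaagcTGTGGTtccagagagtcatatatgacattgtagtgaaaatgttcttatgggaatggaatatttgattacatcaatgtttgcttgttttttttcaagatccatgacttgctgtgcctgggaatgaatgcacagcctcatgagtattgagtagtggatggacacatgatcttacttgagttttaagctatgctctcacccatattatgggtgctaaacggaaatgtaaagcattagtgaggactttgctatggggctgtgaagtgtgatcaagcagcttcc
The letters searched on both strands were TTCNNNGAA for a STAT dimer, GAAANNGAA for the core of an interferon-stimulated response element, TGTGGT for RUNX and AGGTGTGA for a T-box. In Klrb1f the last run of capitals, with its first base at -5 from the start, matched the STAT letters, and the runs at -218 and -152 matched the interferon letters on the minus strand. Among 32851 mouse promoter windows of this length, 8.3% held the STAT letters and 8.56% the interferon letters. In Klre1 the run at -229 matched the RUNX letters, which 16.8% of the windows held. A second annotated start of Klre1, with its window at chr6:129578036-129578335, had no match, and the T-box letters, in 1.28% of the windows, were in none of the 3 windows. A match describes the letters, and binding was not measured.

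The whole-series values that bear on the members are few. Reads on the listed genes came to 6522742 to 13758643 per sample, which is not the full library depth. Replicates of a medium were separate libraries: a chi-square statistic of their reads, divided by its degrees of freedom, was 10.11 to 94.52 for every pair. The label of T cells was met by Cd8b1, a CD8 chain gene, at 7213 to 7347 normalized counts in adipocyte medium, 18875 to 19784 in stromal medium, against 19618 to 23144 in unconditioned medium. Markers of other cells were also present, and their sums are given with the results they touch. These are bulk samples, so fewer cells of a type and less RNA per cell cannot be told apart.

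Klrb1f, the NKR-P1F gene, was high in stromal medium and low in both other media. Its normalized counts (reads divided by a size factor per sample) in mice 1, 2 and 3 were 41.7, 59.4 and 28.3 in adipocyte medium, 2037, 910.2 and 1279 in stromal medium, and 139, 118 and 102 in unconditioned medium. The 3 media did not overlap, with stromal medium highest and adipocyte medium lowest in each mouse; of all genes tested, 97% did not overlap between adipocyte and unconditioned medium, 69.4% between stromal and unconditioned medium and 89.6% between adipocyte and stromal medium. The levels averaged 43.1 ± 15.6 in adipocyte medium, 1409 ± 575 in stromal medium and 119.6 ± 18.3 in unconditioned medium (mean ± SD, n = 3 each). Every library held Klrb1f reads: 29, 66 and 29 in adipocyte medium, 2441, 1380 and 1068 in stromal medium, and 97, 136 and 115 in unconditioned medium. The transcript was therefore detected in all 3 media and was not limited to stromal medium.

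The ratio of stromal to unconditioned medium for Klrb1f was 14.7 in mouse 1, 7.7 in mouse 2 and 12.5 in mouse 3. On the log2(normalized count + 1) scale the difference was 3.48 (SE 0.31, 95% interval 2.81 to 4.15), an 11.2-fold higher level. Counted from the highest, it had rank 10 among the 2868 genes tested, whose median difference was -0.17. The ratio of adipocyte to unconditioned medium was 0.301, 0.503 and 0.278 in mice 1, 2 and 3. On the log2 scale Klrb1f stood at -1.50 (SE 0.31, 95% interval -2.17 to -0.83) in adipocyte medium against unconditioned medium, and the median of all genes tested was -1.03. Scaled by the median of ratios over the listed genes, which moves that median to -0.11, the Klrb1f difference was -0.59. The authors' deposited table for stromal medium gives Klrb1f a log2 fold change of 3.54 with a standard error of 0.371, and their table for adipocyte medium does not list it.

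**Figure D1:**
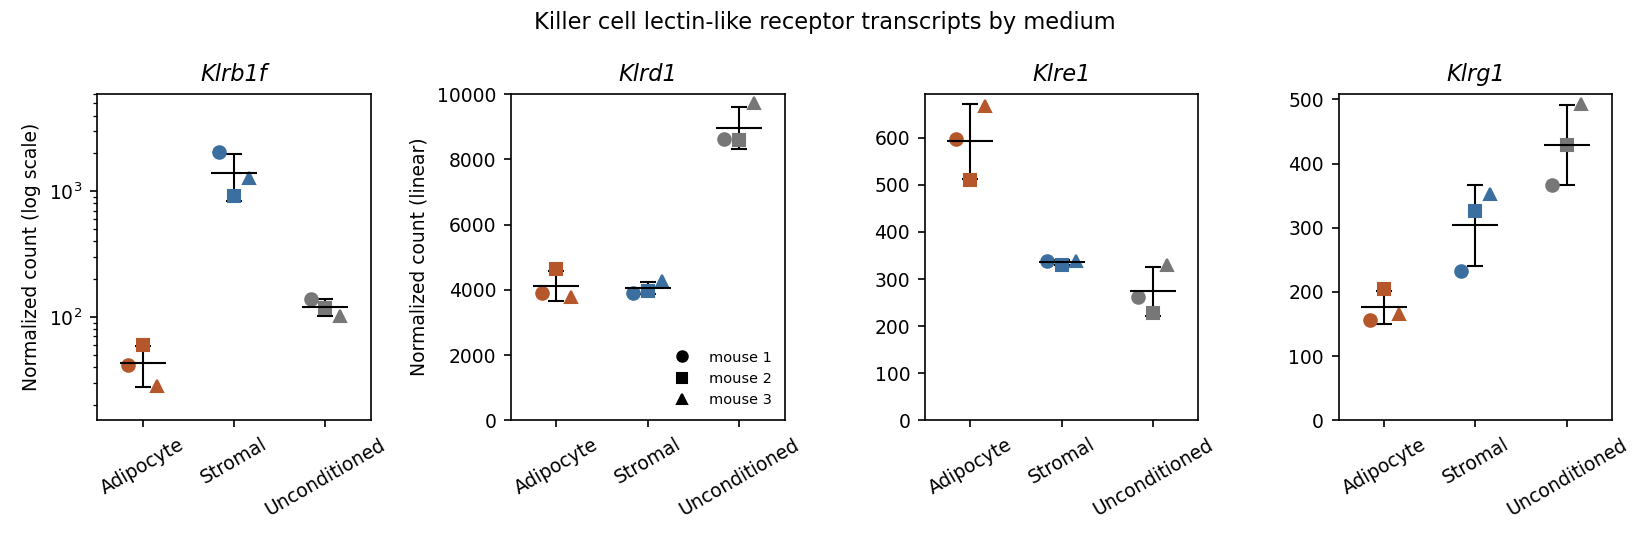
Normalized counts of the 4 receptor genes in each sample, by medium, on a log axis for Klrb1f and linear axes from 0 for the others. Points are samples with a marker per mouse, and bars are the mean and SD of 3 samples. Klrb1f stands at 910.2 to 2037 in stromal medium, Klrd1 is lower in both conditioned media, Klre1 is highest in adipocyte medium and Klrg1 is lowest there.

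The order of stromal above unconditioned above adipocyte medium, without overlap between neighbours, was shared by 139 of the 2868 genes (4.85%). Genes called higher in stromal and lower in adipocyte medium, both against unconditioned medium at a limma adjusted p under 0.05, numbered 88 (3.07%). Within stromal medium the spread of Klrb1f over mice was wide, with a coefficient of variation of 40.8%, against 36.1% in adipocyte medium and 15.3% in unconditioned medium. Mouse 1 was highest and mouse 2 lowest in stromal medium, while mouse 2 was highest in adipocyte medium.

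Klrd1, the CD94 gene, was lower in both conditioned media than in unconditioned medium. Its normalized counts in mice 1, 2 and 3 were 3905, 4637 and 3784 in adipocyte medium, 3912, 3971 and 4264 in stromal medium, and 8621, 8582 and 9716 in unconditioned medium. All 6 conditioned samples were below all 3 unconditioned samples, where 97% (adipocyte) and 69.4% (stromal) of all genes tested did not overlap unconditioned medium. The conditioned media overlapped each other. The means were 4108 ± 462 in adipocyte medium, 4049 ± 188 in stromal medium and 8973 ± 644 in unconditioned medium (SD, n = 3 each). The log2 difference from unconditioned medium was -1.13 (SE 0.09, 95% interval -1.33 to -0.93) in adipocyte medium and -1.15 (SE 0.09) in stromal medium. For adipocyte medium this lay near the median of all genes tested, and in stromal medium 8.61% of the genes tested were lower. Under the median-of-ratios scaling it was -0.20 in adipocyte medium and -0.79 in stromal medium. The authors' deposited tables list Klrd1 in both comparisons, at -1.13 for adipocyte and -1.15 for stromal medium.

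Klre1, whose product pairs with KLRI chains, was highest in adipocyte medium. Its normalized counts in mice 1, 2 and 3 were 598, 510.3 and 668 in adipocyte medium, 339, 329 and 338 in stromal medium, and 263, 229 and 331 in unconditioned medium. Adipocyte medium did not overlap unconditioned or stromal medium, as for 97% and 89.6% of all genes tested. Mouse 3 in unconditioned medium lay above mouse 2 in stromal medium. The means were 592 ± 79.2 in adipocyte medium, 335 ± 5.31 in stromal medium and 274 ± 51.9 in unconditioned medium (SD, n = 3 each). The log2 difference from unconditioned medium was 1.12 (SE 0.16, 95% interval 0.77 to 1.46) in adipocyte medium and 0.31 (SE 0.16, 95% interval -0.04 to 0.65) in stromal medium. The level was higher than in unconditioned medium in 3 of 3 mice in each conditioned medium, with ratios of 2.28, 2.23 and 2.02 in adipocyte medium and 1.29, 1.44 and 1.02 in stromal medium. Under the median-of-ratios scaling the difference was 2.04 in adipocyte medium and 0.66 in stromal medium.

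Klrg1, the gene of an inhibitory receptor, was lowest in adipocyte medium and highest in unconditioned medium. Its normalized counts in mice 1, 2 and 3 were 157, 204 and 166 in adipocyte medium, 233, 326 and 352 in stromal medium, and 367, 429 and 492 in unconditioned medium. Neighbouring media did not overlap, where 69.4% of all genes tested did not overlap between stromal and unconditioned medium and 89.6% between adipocyte and stromal medium. Each mouse had the same order, and the share of genes with this order was not counted. The means were 176 ± 25.2 in adipocyte medium, 304 ± 62.7 in stromal medium and 429 ± 62.5 in unconditioned medium (SD, n = 3 each). The log2 difference from unconditioned medium was -1.28 (SE 0.19, 95% interval -1.70 to -0.87) in adipocyte medium and -0.51 (SE 0.19, 95% interval -0.92 to -0.09) in stromal medium. The medians of all genes tested were -1.03 and -0.17, and 34.45% and 29.5% of the genes tested were lower than Klrg1. Under the median-of-ratios scaling the difference was -0.36 in adipocyte medium and -0.15 in stromal medium.

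Per length of merged exons, Klrd1 led in every medium and Klrb1f changed place. Klrd1 had 3207 ± 360 normalized counts per kilobase in adipocyte medium, 3161 ± 147 in stromal medium and 7005 ± 503 in unconditioned medium (SD, n = 3 each). Klrb1f had 21.3 ± 7.70 normalized counts per kilobase in adipocyte medium, 696 ± 284 in stromal medium and 59.0 ± 9.06 in unconditioned medium. It was second of the 4 in stromal medium and last in adipocyte and unconditioned medium, where in unconditioned medium its range overlapped that of Klre1. Klre1 had 169.5 ± 22.7 normalized counts per kilobase in adipocyte medium, 95.9 ± 1.52 in stromal medium and 78.4 ± 14.9 in unconditioned medium. Klrg1 had 124 ± 17.8 in adipocyte medium, 215 ± 44.4 in stromal medium and 303.5 ± 44.2 in unconditioned medium. The order of Klre1 and Klrg1 thus differed between media, with Klre1 above Klrg1 in adipocyte medium and below it in the other media.

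Against unconditioned medium the fit called 4 of the 4 members in adipocyte medium, 1 higher and 3 lower, where 97.2% of all genes tested were called, 33.8% higher and 63.4% lower. In stromal medium it called 3 of 4, 1 higher and 2 lower, where 57.7% of all genes tested were called, 21.1% higher and 36.6% lower. The rows of the table were chosen on these comparisons, and nothing is read from the counts. Under the median-of-ratios scaling 2 members were called in adipocyte medium, where 2125 of all 2871 genes tested were called. In stromal medium the Klrg1 call was lost without stromal mouse 1 (-0.33), unconditioned mouse 2 (-0.51) or unconditioned mouse 3 (-0.41), and Klre1 gained one without unconditioned mouse 3 (0.45).

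**Figure D2:**
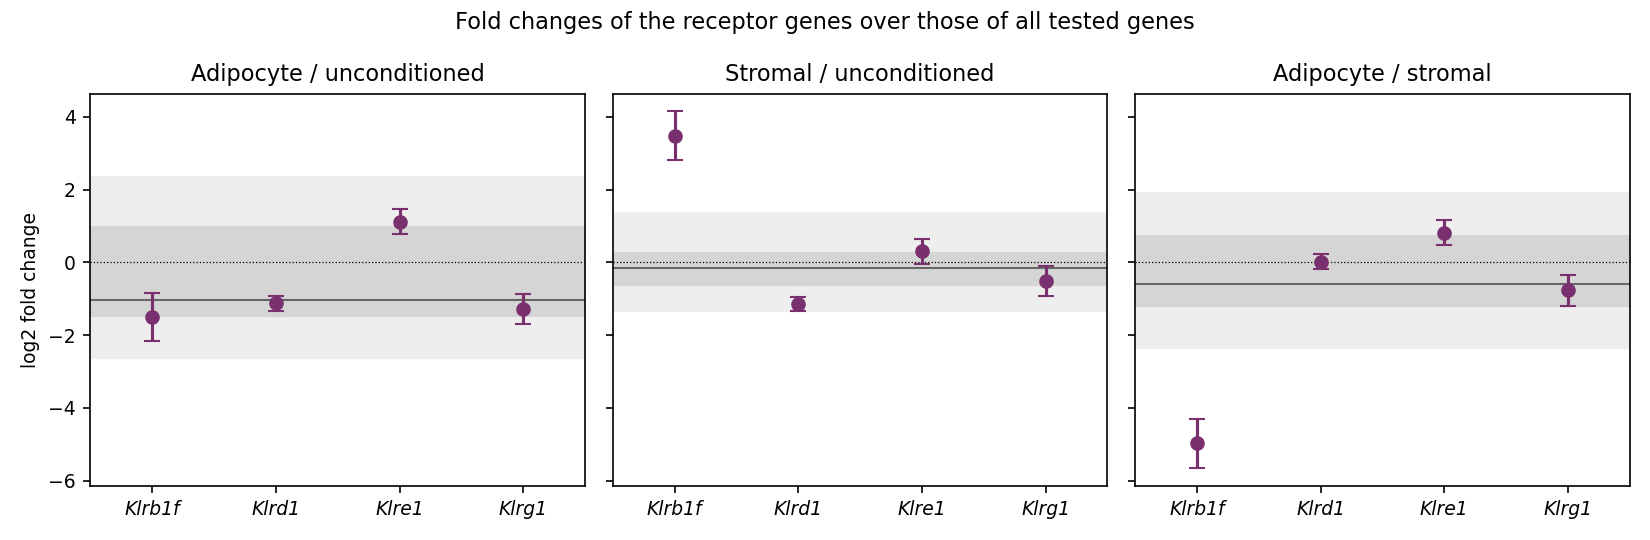
Log2 fold change with its 95% interval of the 4 receptor genes in the 3 comparisons of media. Grey bands are the 5th to 95th and 25th to 75th percentiles of the 2868 genes tested and the line is their median. Klrb1f lies above the bands in stromal against unconditioned medium at 3.48.

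Adipocyte against stromal medium is a comparison for which the authors deposited no table among the files used here, and it shares its samples with the comparisons that chose the rows. The authors' tables list Klre1 and Klrg1 for adipocyte medium only and Klrd1 for both conditioned media, so the differences of these 3 members here are a description without a p. For every other gene of the table an adjusted p in this comparison likewise comes from samples on which the gene was chosen. Genes other than the members are therefore given below without a p in this comparison. Of the 3 members other than Klrb1f, 2 were called at a limma adjusted p under 0.05, where 91% of all genes tested were called (33.8% of the genes tested were higher and 57.2% lower). Klre1 was higher in adipocyte medium by 0.81 on the log2 scale (SE 0.16, 95% interval 0.46 to 1.16), and in 3 of 3 mice. Klrg1 was lower, with a log2 difference of -0.77 (SE 0.19, 95% interval -1.19 to -0.36), and in 3 of 3 mice. Klrd1 differed by 0.02 (SE 0.09, 95% interval -0.18 to 0.22) and was not called, with ratios of 0.998, 1.17 and 0.887 in mice 1, 2 and 3. Under the median-of-ratios scaling Klrd1 was called, higher in adipocyte medium by 0.59, Klrg1 stood at -0.21 and was not called, and Klre1 was still called, at 1.38. For Klrb1f, chosen for its stromal level, the ratio of stromal to adipocyte medium was 48.9 in mouse 1, 15.3 in mouse 2 and 45.1 in mouse 3, and the log2 difference of adipocyte from stromal medium was -4.98 (SE 0.31). Counted from the highest, that was rank 2862 of 2868.

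Reads of a pair of genes within a library share its size factor, so their ratio does not depend on the scaling. Per 100 Klrd1 reads, Klrb1f had 1.07, 1.28 and 0.749 reads in mice 1, 2 and 3 in adipocyte medium, 52.1, 22.9 and 29.99 in stromal medium, and 1.61, 1.38 and 1.05 in unconditioned medium. On this ratio stromal medium stood above both other media. The ranges of adipocyte and unconditioned medium overlapped, and within each of the 3 mice adipocyte medium was lower than unconditioned medium. Klre1 had 15.3, 11.01 and 17.7 reads per 100 Klrd1 reads in adipocyte medium, 8.66, 8.29 and 7.92 in stromal medium, and 3.05, 2.66 and 3.40 in unconditioned medium. The 3 media did not overlap on it, so relative to Klrd1 the Klre1 transcript was higher in adipocyte and in stromal medium than in unconditioned medium in every mouse. Klrg1 had 4.02, 4.41 and 4.39 reads per 100 Klrd1 reads in adipocyte medium, 5.95, 8.22 and 8.26 in stromal medium, and 4.26, 4.99 and 5.06 in unconditioned medium. Stromal medium was highest there, although Klrg1 itself was lower in stromal than in unconditioned medium (-0.51), because Klrd1 was lower still (-1.15). The ranges of the other media overlapped, with adipocyte medium lower than unconditioned medium within each of the 3 mice.

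**Figure D3:**
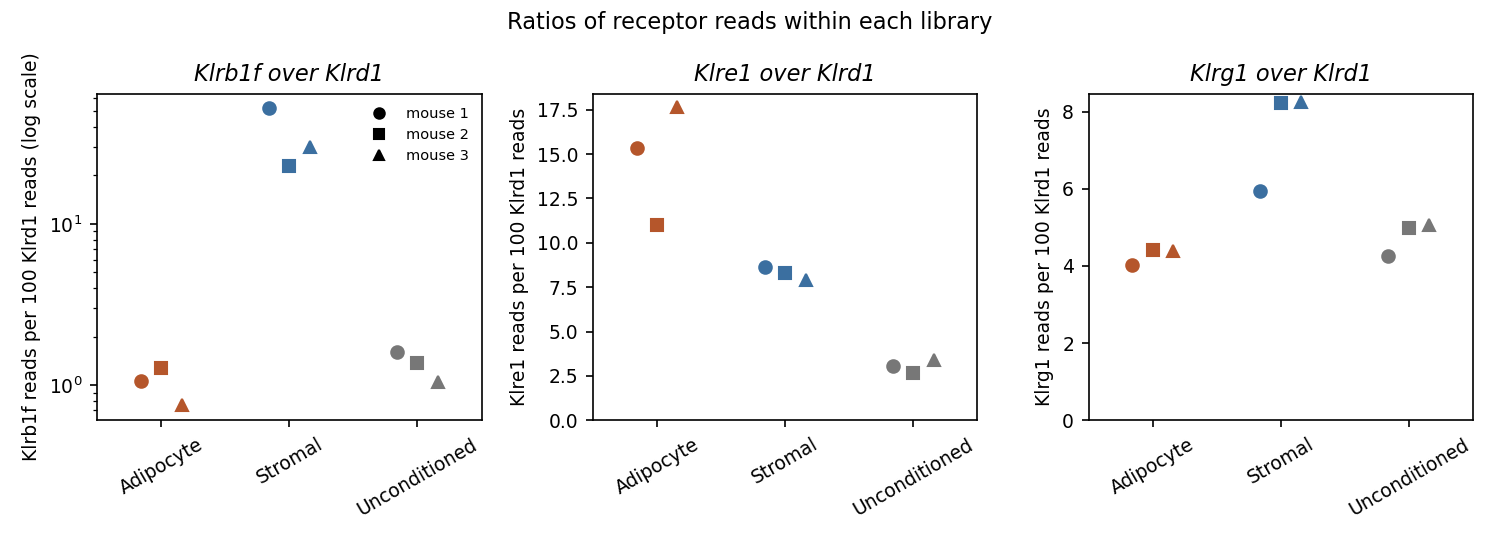
Reads of Klrb1f, Klre1 and Klrg1 per 100 Klrd1 reads in each sample, by medium, with a marker per mouse (log axis for Klrb1f, linear axes for the others). Klrb1f is at 22.9 to 52.1 in stromal medium, above both other media, and Klre1 per Klrd1 does not overlap between media.

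Across the 9 samples the 4 receptor genes did not share a pattern, and the authors' deposited clusters place Klrb1f in cluster 4 (132 genes), Klrd1 and Klrg1 in cluster 2 (1611 genes) and Klre1 in cluster 1 (920 genes). Pearson correlations of log2(normalized count + 1), which mostly reflect the 3 media, were 0.78 for Klrd1 with Klrg1 and -0.88 for Klre1 with Klrg1, and lay between -0.66 and 0.35 for the other pairs. Among 2764 candidate genes the 8 most like Klrb1f, with Pearson correlations of 0.98 to 0.99, were Zbp1, Psat1, Frmd6, Gas2l1, Gpt2, Lad1, Gbp8 and Lrrc6. Zbp1, a sensor of nucleic acid in Z form, had 1614, 1822 and 1433 normalized counts in adipocyte medium, 5549, 4309 and 4150 in stromal medium, and 2007, 2166 and 1830 in unconditioned medium, highest in stromal medium in each mouse. Gbp8, an interferon-inducible GTPase gene, had 2189, 2372 and 1706 in adipocyte medium, 12305, 6500 and 8546 in stromal medium, and 2591, 2489 and 2468 in unconditioned medium. In stromal medium 6 of these 8 genes, all but Zbp1 and Gas2l1, had the order of mice of Klrb1f, with mouse 1 highest and mouse 2 lowest, and all 8 were picked for their correlation with Klrb1f over these samples. Psat1, an enzyme gene of serine synthesis, averaged 1252 ± 236 in adipocyte medium, 4472 ± 314 in stromal medium and 2021 ± 91.1 in unconditioned medium (SD, n = 3 each). Gpt2, encoding a mitochondrial alanine aminotransferase, averaged 259.8 ± 69.4 in adipocyte medium, 987 ± 36.7 in stromal medium and 366 ± 24.99 in unconditioned medium.

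**Figure D4:**
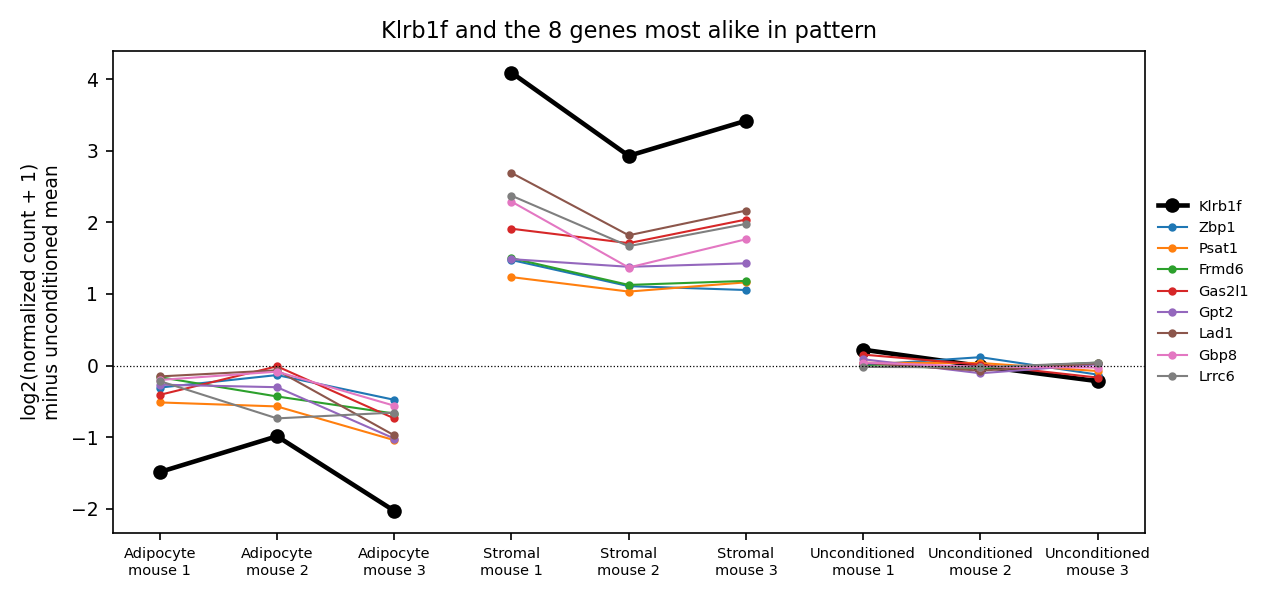
Difference of log2(normalized count + 1) from the mean of unconditioned medium, in each of the 9 samples, for Klrb1f and the 8 genes whose pattern correlates best with it. All 9 genes are higher in stromal medium, and Klrb1f has the widest range.

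For the other members the 3 most alike genes were named by the same rule. Klrd1 was most like Trim5, Nrp1 and Zer1 (Pearson correlation 0.99 each). Nrp1, the gene of the coreceptor neuropilin 1, had 731, 982 and 663 normalized counts in adipocyte medium, 869, 852 and 835 in stromal medium, and 1931, 2132 and 2299 in unconditioned medium. Like Klrd1, it was lower in both conditioned media, which overlapped. Klre1 was most like Llph, H4c1 and Mex3d (0.98 each), of which H4c1 is a histone gene with near-identical copies and so is uncertain. Mex3d, an RNA-binding protein gene, averaged 1644 ± 102 in adipocyte medium, 910.2 ± 102 in stromal medium and 768 ± 149 in unconditioned medium (SD, n = 3 each). Klrg1 was most like Pou2f2, Ccdc191 and Gpr137 (0.97 to 0.98). Pou2f2, the gene of the lymphocyte transcription factor Oct-2, had 342, 439 and 365 in adipocyte medium, 636, 709.7 and 742 in stromal medium, and 941, 999 and 1165 in unconditioned medium, in the same order of media as Klrg1.

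Genes that lie beside the receptors in the complex had patterns of their own. RefSeq lists 48 protein-coding genes from Klrb1a to Klra2 on chromosome 6, 9 of them in the sample table, and Klrg1 lies outside this block. Klre1 and Klrd1 are adjacent, with 0 protein-coding genes between them, yet Klre1 was higher in adipocyte medium than in unconditioned medium and Klrd1 lower. Gabarapl1, an autophagy gene next to Klre1, had 2541, 2456 and 2419 normalized counts in adipocyte medium, 1279, 1193 and 1229 in stromal medium, and 1213, 1213 and 1202 in unconditioned medium. It was higher in adipocyte than in stromal medium by 1.00 on the log2 scale (SE 0.08). Clec2i, with 2 protein-coding genes between it and Klrb1f, encodes Clr-g, the ligand of NKR-P1F. Clec2i had 5301, 5340 and 4937 normalized counts in adipocyte medium, 3648, 3413 and 3942 in stromal medium, and 2755, 2948 and 3059 in unconditioned medium. It was highest in adipocyte medium, where Klrb1f was lowest, and exceeded stromal medium by 0.50 (SE 0.08). BC035044, the listed gene next to Clec2i, went the other way: its log2 difference of adipocyte from stromal medium was -1.68.

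**Figure D5:**
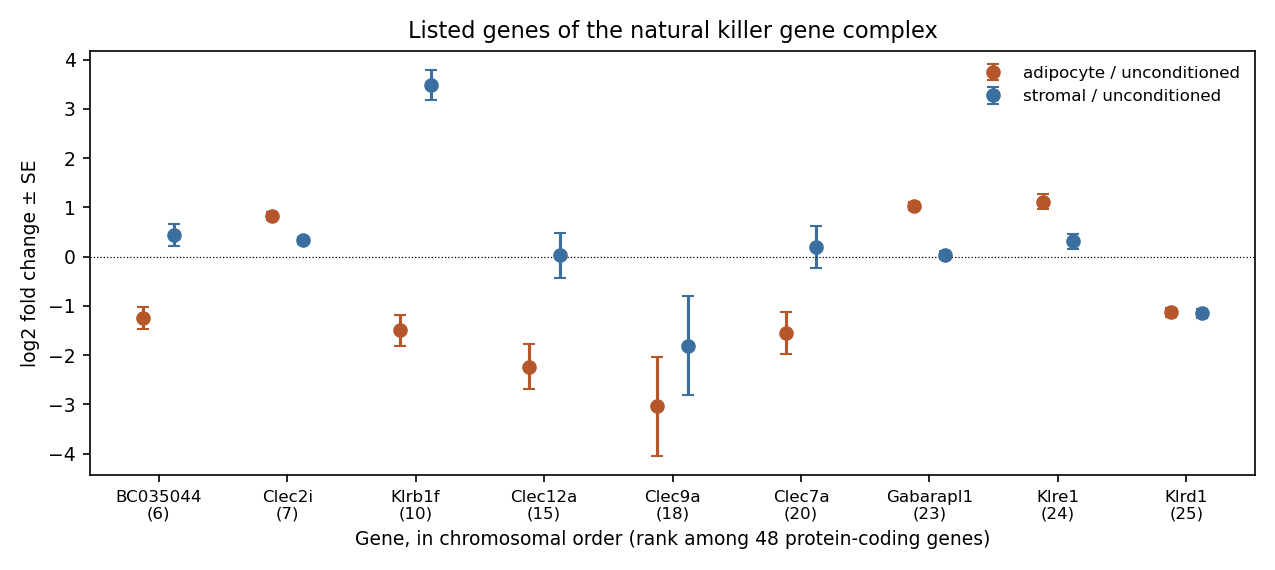
Log2 fold change with SE of the 9 listed genes of the natural killer gene complex, in chromosomal order, in adipocyte and in stromal medium, each against unconditioned medium. Klrb1f at 3.48 is the highest in stromal against unconditioned medium, and its neighbours lie far below it.

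Among the partners of the receptors, few were in the table. Of 17 lectin genes of the complex and Clec2 ligands, 4 were tested: against unconditioned medium 1 rose and 3 fell in adipocyte medium, and 1 rose and 3 were not called in stromal medium. Of all genes tested 97.2% were called in adipocyte medium (33.8% higher, 63.4% lower) and 57.7% in stromal medium (21.1% higher, 36.6% lower). In adipocyte against stromal medium 91% were called, 33.8% higher and 57.2% lower. The same background applies to the lists that follow. With the median-of-ratios scaling 1 of the 4 rose, 1 fell and 2 were not called in adipocyte medium. For this list and those that follow, that scaling called 2125 of all 2871 genes tested in adipocyte medium and 1691 in stromal medium. In adipocyte against stromal medium 1 of the 4 (Clec2i) was higher and 2 were lower: Clec12a, an inhibitory lectin gene of myeloid cells, stood at -2.26 and Clec7a, the dectin-1 gene, at -1.74. Clec9a, a lectin gene of dendritic cells, stood at -1.23 (SE 1.0) and was not called. It was near the floor, at 0 to 4.31 normalized counts in adipocyte and 0 to 17.8 in stromal medium. It also shares exon bases with Clec1b on the same strand, so its reads may be shared. None of the 10 NKG2D ligand genes was in the table. Of 22 genes of class I molecules and peptide loading, 1 was: H2-Q4, which shares exon bases with a gene on the opposite strand. It was higher in adipocyte than in stromal medium by 0.40 and rose against unconditioned medium by 0.88 in adipocyte and by 0.48 in stromal medium.

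Of 26 adaptor and signalling genes, 3 were tested, and all 3 fell in adipocyte medium, where 63.4% of all genes tested fell, while 1 fell and 2 were not called in stromal medium, where 36.6% fell. Hcst, the DAP10 gene, had 1468, 1260 and 1487 normalized counts in adipocyte medium, 838, 933 and 732 in stromal medium, and 1627, 2149 and 1940 in unconditioned medium. Both conditioned media lay below every unconditioned sample, where 97% (adipocyte) and 69.4% (stromal) of all genes tested did not overlap unconditioned medium. The log2 difference of Hcst from unconditioned medium was -0.43 in adipocyte and -1.19 in stromal medium, and adipocyte exceeded stromal medium by 0.75. Tyrobp, the DAP12 gene, stood at -1.42 in adipocyte against stromal medium, and Syk, a kinase gene downstream of these adaptors, at -1.08. Scaled by the median of ratios, 1 of the 3 rose and 0 fell in adipocyte medium, so the lower level of Hcst there depends on the scaling.

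Genes of the functions that these receptors control were counted from lists. A list of 24 cytotoxic effector genes also held cytokine, chemokine and protease inhibitor genes. Of these 24, 13 were tested, and 10 rose, 2 fell and 1 was not called in adipocyte medium. Their median was 1.54, against -1.03 over all genes. Those that fell were Nkg7 (-0.89) and Tnfsf10 (-1.09). Prf1, the perforin gene, was not called (-0.38) and stood at -1.81 in stromal medium. In stromal medium 7 rose, 1 fell and 5 were not called, with a median of 0.55 against -0.17. With the median-of-ratios scaling 10 rose, 0 fell and 3 were not called in adipocyte medium. In adipocyte against stromal medium 11 were higher and 2 lower (median 1.43, against -0.60 over all genes), where 33.8% of all genes tested were higher and 57.2% lower. Gzmb, the granzyme B gene, was higher by 2.49, Ifng by 2.34 and Serpinb6b, a protease inhibitor gene, by 1.84. Tnfsf10, the TRAIL gene, stood at -1.64.

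Of 27 other receptors of natural killer and innate-like cells, 14 were tested: 6 rose and 8 fell in adipocyte medium (median -0.74), and 2 rose, 4 fell and 8 were not called in stromal medium (median -0.32). Scaled by the median of ratios, the adipocyte count was 7 up, 3 down and 4 not called, with a median of 0.18, and in stromal medium 5 rose, 3 fell and 6 were not called, with a median of 0.03. In adipocyte against stromal medium 7 were higher, 5 lower and 2 not called (median 0.25), where 33.8% of all genes tested were higher and 57.2% lower. Il21r, the interleukin 21 receptor gene, was higher by 1.23, Slamf7 by 1.40 and Cd160 by 1.56. Il12rb1, an interleukin 12 receptor gene, stood at -1.50. Cd96, an adhesion receptor gene picked after its values were seen, stood like Klrd1 at -1.28 in adipocyte and -1.25 in stromal medium against unconditioned medium.

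Of 22 transcription factors, 8 were tested: 6 rose and 2 fell in adipocyte medium (median 1.00), and 2 rose, 2 fell and 4 were not called in stromal medium (median -0.07). With the median-of-ratios scaling 6 rose, 0 fell and 2 were not called in adipocyte medium, and 4 rose, 1 fell and 3 were not called in stromal medium, with a median of 0.28 there. In adipocyte against stromal medium 5 were higher, 2 lower and 1 not called (median 0.79), where 33.8% of all genes tested were higher and 57.2% lower. Rora was higher by 1.23, Zbtb16, the gene of PLZF, by 1.78 and Tox by 1.09. Bcl11b, a T cell identity factor gene, stood at -0.85. Exons of Ifng, Slamf7, Cd160, Rora and Tox overlap those of another gene model, so their reads may be shared.

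Markers of other cells moved with the media, and their part in the receptor results was not tested. Of 14 natural killer cell markers, 5 were in the table, and their summed normalized counts were 4938 to 6895 in adipocyte medium, 5832 to 6915 in stromal medium, against 9588 to 11605 in unconditioned medium, lower in both conditioned media like Klrd1. In adipocyte medium 4 of the 5 fell and 1 was not called, and in stromal medium 3 fell and 2 were not called. With the median of ratios as scaling 0 rose, 0 fell and 5 were not called in adipocyte medium, and 1 rose, 3 fell and 1 was not called in stromal medium. Of 9 CD8 T cell markers, 5 were listed, with sums of 11652 to 12736 in adipocyte medium, 34397 to 35877 in stromal medium, against 33340 to 39532 in unconditioned medium. The CD4 T cell markers in the table (2 of 7) were Cd40lg and Ctla4, and Cd4 itself was not among them. They summed to 23866 to 33362 in adipocyte medium, 10364 to 12485 in stromal medium, against 11170 to 12208 in unconditioned medium. Those of NKT and MAIT cells (5 of 9) summed to 12082 to 19492 in adipocyte medium, 6899 to 7198 in stromal medium, against 8249 to 8564 in unconditioned medium. Of that sum Il4 made 4358 to 8856 in adipocyte medium, against 144 to 199 in unconditioned medium. In adipocyte medium 3 of the 5 rose and 2 fell (Cd1d1 at -1.41 and Il18r1 at -0.50), and in stromal medium 1 rose, 3 fell and 1 was not called. Under the median-of-ratios scaling 4 of the 5 rose and 1 fell in adipocyte medium, and 2 rose, 1 fell and 2 were not called in stromal medium. B cell markers (9 of 16) summed to 4240 to 5922 in adipocyte medium, 11710 to 17555 in stromal medium, against 11147 to 14399 in unconditioned medium, and myeloid markers (6 of 17) to 2084 to 2553 in adipocyte medium, 7434 to 12090 in stromal medium, against 6936 to 10885 in unconditioned medium. Dendritic cell markers (6 of 12) summed to 2444 to 2881 in adipocyte medium, 3160 to 4189 in stromal medium, against 1712 to 1845 in unconditioned medium. Most of that sum was Irf8 (2054 to 2396 in adipocyte medium), and 4 of the 6 fell and 2 rose in adipocyte medium, with a median of -2.46. In stromal medium Irf8 was at 2533 to 3565, and 2 of the 6 rose, 2 fell and 2 were not called, with a median of -0.56. Neutrophil markers (5 of 12) summed to 191 to 541 in adipocyte medium, 427 to 1162 in stromal medium, against 479.9 to 1128 in unconditioned medium. The erythroid marker Car1 (1 of 9) was at 74.8 to 146 in adipocyte medium, 539 to 1776 in stromal medium, against 259 to 429.9 in unconditioned medium. The only γδ T cell marker in the table, the cytokine gene Il17a (1 of 10), was at 28.8 to 102 in adipocyte medium, 0 to 1.98 in stromal medium, against 0 in unconditioned medium. Between stromal and unconditioned medium the sums of CD8, CD4, B cell, myeloid and neutrophil markers overlapped. The dendritic cell sum, most of it Irf8, and the erythroid marker, a single gene, were higher in stromal than in unconditioned medium without overlap. Of all genes tested, 69.4% did not overlap between stromal and unconditioned medium. The natural killer and the NKT and MAIT sums were lower in stromal than in unconditioned medium without overlap, although Il4, part of the latter sum, was higher by 1.14. The defining natural killer genes Ncr1 and Eomes were not analysed here.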

How the data were processed

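RNA of 9 samples of splenic T cells was measured. Per the labels' protocols, cDNA was made with SMART-seq v4 and libraries with Nextera XT, which do not keep strand. Tools named in the submitters' processing notes, with no version, are featureCounts, Trimmomatic, FastQC and DESeq2, and builds, with no role, are GRCm39, GRCh38 and hg38. For the aligner and the annotation, the sources used here give nothing. The deposited sample table holds a normalized signal that the authors made by dividing counts by a size factor: 100% of the values gave whole reads within 0.001, and these reads were recovered. It also holds the authors' cluster number. The authors' 2 deposited tables give, per the file headers, a mean signal, a log2 fold change and its error, a score, and raw and adjusted p-values. The score equals that of a test for a change beyond 1.5-fold.

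Values were fitted as log2(value + 1), which understates the change of low genes, with limma-trend (limma 3.58.1, R 4.3.3), with all 9 samples and the medium as factor, over the 2868 genes whose mean reached 1, and p-values were adjusted by Benjamini-Hochberg with a threshold of 0.05. The method was checked on simulated data in which few genes changed, up and down alike, and no rows were selected. That check does not cover the selected rows or the broad shift of these data. Alternatives were other pseudocounts, filters and scalings, a block for mouse, edgeR 4.0.16, DESeq2 1.42.0 and samples left out. Samples of the same number come from the same mouse, per the labels; the correlation of their deviations from the group means was -0.125 to 0.262. The labels name mice as the replicates, so p-values cover the spread between mice. Exon lengths came from GENCODE vM21. The members and gene lists were chosen with earlier results of these data known. Named genes were all members, the genes most correlated with each over the 9 samples among those with a mean of at least 10, and up to 4 genes of each list with the smallest adjusted p in adipocyte against stromal medium.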

Additional observations from a re-analysis of the deposited data

How the results depend on the processing

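Each result was recomputed under 21 alternatives. In adipocyte against unconditioned medium 4 members were called, and 2 (Klrd1 and Klre1) under the median of ratios over the listed genes, where Klrb1f and Klrg1 missed the threshold. Of all genes tested, 2125 of 2871 were called under that scaling, against 2787 of 2868 in the main fit. That scaling moves the median of all genes from -1.03 to -0.11, from -0.17 to 0.19 in stromal against unconditioned medium and from -0.60 to -0.03 in adipocyte against stromal medium. TMM over the listed genes gave medians of -0.59, -0.02 and -0.29, and called Klrd1 higher in adipocyte than in stromal medium by 0.32. Left-out samples gave 4 to 4 members called in adipocyte and 2 to 3 in stromal against unconditioned medium, and 2 to 2 of the 3 members other than Klrb1f in adipocyte against stromal medium. In stromal against unconditioned medium Klrg1 (-0.51) lost its call without stromal replicate 1 (-0.33), without unconditioned replicate 2 (-0.51) or 3 (-0.41), without any whole mouse (-0.57 to -0.44), and under both other scalings (-0.37 and -0.15). Klre1 (0.31) gained one without unconditioned replicate 3 (0.45) and under both other scalings (0.45 and 0.66). The cause was not tested. Over all alternatives Klrb1f was at 3.17 to 3.83 in stromal and -1.76 to -0.59 in adipocyte against unconditioned medium. Klre1 in adipocyte against stromal medium was at 0.72 to 1.38. With the replicate block for mouse 4 members were called in adipocyte and 3 in stromal against unconditioned medium, and 2 of the 3 other than Klrb1f in adipocyte against stromal medium, and it changed no call of a member. On recovered reads edgeR called 2784, 1687 and 2611 genes and DESeq2 2786, 1721 and 2606, against 2787, 1655 and 2609 by limma. With 3 mice a group, low genes such as Klrb1f in adipocyte medium rest on 29 to 66 reads.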
